A study of Mus musculus with 6 samples.

Results

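Of the 12393 genes that the array read by probe sets with a single gene symbol, 39 belonged to the stress programme of ATF4, amino acid supply and the endoplasmic reticulum (ER), and these were compared between mouse skeletal muscle that had received TFEB and muscle that had received GFP. The list held 42 genes chosen by symbol for their known roles, and a member was any of them with at least 1 probe set (a group of short oligonucleotides that reads 1 transcript) carrying that symbol alone in the platform annotation. Pycr1, which completes proline synthesis, Mars, the methionyl-tRNA synthetase, and Gdf15, a secreted stress factor, had no such probe set and were not analysed here. The 39 members were 11 sensors and factors, 6 genes of feedback and growth control, 11 genes of amino acid synthesis, 8 cytosolic tRNA synthetases, the secreted factor Fgf21 and 2 genes of ER-associated degradation.

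All 6 mice were wild-type C57BL/6 animals, aged 1 month by their labels, although the study's own text calls them adult. In 3 mice the muscle had been injected with an adeno-associated virus (AAV) that carried the murine Tfeb cDNA, labelled Tcfeb (TFEB overexpression), and in the other 3 with an AAV that carried green fluorescent protein (GFP control). Per the study's text both vectors used the CMV promoter, which is not restricted to muscle fibres, and the animals were killed about 3 weeks after the injection. Both groups had therefore been injected and had received a virus, and uninjected muscle was not analysed here. Each mouse gave 1 array of total RNA, and the labels number the arrays of each group as biological replicates 1 to 3. In bulk RNA of this kind, fewer cells of a type and less RNA per cell cannot be told apart.

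Cells that lack amino acids or accumulate unfolded proteins in the ER phosphorylate the initiation factor eIF2 through kinases such as GCN2 and PERK, which slows translation in general and favours translation of the transcription factor ATF4. ATF4 is known to drive genes that make asparagine, serine and proline, charge tRNAs, restrain growth and feed back on the pathway. PERK is also a sensor of the unfolded protein response, beside IRE1, which splices the Xbp1 transcript, and ATF6, which is cleaved to become active, and in muscle the same programme is known from mitochondrial disease and from secretion of FGF21. The arrays measured transcript levels, so phosphorylation, splicing and translation of these proteins were not seen.

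Psat1, Aldh18a1 and Asns, which act in the synthesis of serine, proline and asparagine, rose in TFEB overexpression, whereas Chac1, Cth and Gpt2 fell and neither Atf4 nor any of the tRNA synthetases rose. Each value is a log2 level, each difference is TFEB overexpression minus GFP control on the log2 scale with its standard error (SE, from n = 3 arrays a group), and a gene rose or fell only if its adjusted p in the limma fit was under 0.05 and its fold change was at least 1.5. By these limits 8 of the 39 members rose, namely Eif2ak3, Atf3, Ddit4, Asns, Psat1, Phgdh, Mthfd2 and Aldh18a1, and 3 fell, namely Chac1, Cth and Gpt2. Over the whole array 8.62% of genes rose and 4.90% fell (13.5% in either direction), against 28.2% of the members in either direction. The members were chosen with earlier results of these data known, so the gap between these shares was not tested. A further 3 members were higher and 8 lower at an adjusted p under 0.05 with less than a 1.5-fold difference, as were 8.17% and 11.9% of all genes. The median difference of the members was -0.04 (0.045 with the arrays scaled to fast fibre contractile genes), next to -0.05 over all genes. The 3 TFEB values lay above all 3 GFP values at 13 members and below them at 15, and the groups overlapped at 11. Separation of this kind was common, at 51.1% of all genes. Without GFP control replicate 2, whose profile stood apart from the other arrays, the same 11 members passed both limits, but the number that rose was 3 when GFP control replicate 1 or either of TFEB overexpression replicates 2 and 3 was left out, and 5 when GFP control replicate 3 or TFEB overexpression replicate 1 was.

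Array medians ran from 6.44 to 6.55, and the lowest value was 2.20 and the highest 14.4. Any pair of TFEB arrays differed over 2-fold at 45 to 101 probe sets and GFP control replicates 1 and 3 differed at 87, whereas for GFP control replicate 2 the numbers against those 2 arrays were 844 and 725. Tfeb itself was read by a probe set that was lower in TFEB overexpression (-0.77 ± 0.097, adjusted p = 0.0024), and its position within or outside the delivered cDNA is unknown here, so the group is named for what was delivered. The 8 muscle fibre markers had a mean level of 14.03 to 14.05 in GFP control and 14.05 to 14.07 in TFEB overexpression, near the top of the array. Markers of other cells were also present and differed by group. Of 7 fibroblast markers 4 rose (mean level 10.15 to 10.39 in GFP control and 11.13 to 11.45 in TFEB overexpression), as did 4 of 6 endothelial markers (7.55 to 7.82 and 8.42 to 8.69) and 1 of 9 macrophage markers (6.33 to 8.54 and 7.88 to 8.61). Of 4 neutrophil markers 2 rose, S100a8 9.51-fold and S100a9 1.52-fold, while Mpo and Elane did not pass, and of 3 satellite cell markers Myf5 rose 1.92-fold. Both fat cell markers were lower in every TFEB array without passing, Adipoq by -1.19 (adjusted p = 0.084) and Retn by -0.74 (adjusted p = 0.066), and 0 of 3 T and B cell markers passed. The difference between the 3′ and 5′ probe sets of beta-actin, a sign of RNA quality, was 0.037 to 0.077 in GFP control against 0.22 to 0.34 in TFEB overexpression. For Gapdh the same difference was nearer between the groups, at -0.071 to -0.061 in GFP control and -0.038 to 0.053 in TFEB overexpression. The part of cell type markers and of RNA quality in the results below was not tested.

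**Figure D1:**
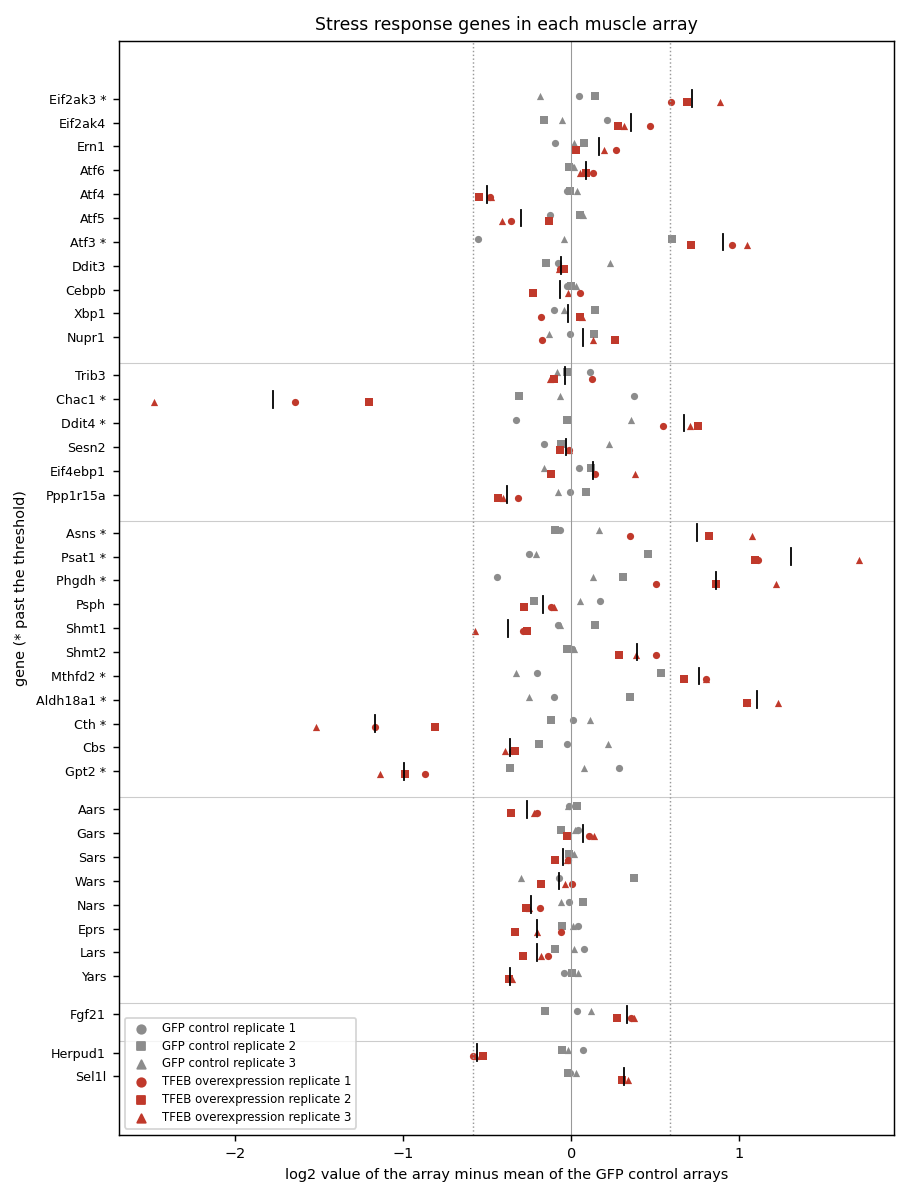
Each row is a member, each symbol 1 array, and the horizontal axis is that array's log2 value minus the mean of the 3 GFP control arrays. GFP control is grey, TFEB overexpression red, circles, squares and triangles are replicates 1, 2 and 3, black ticks are TFEB means, dotted lines mark 1.5-fold, and stars mark the 11 members past the threshold, 8 to the right and 3 (Chac1, Cth, Gpt2) to the left.

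Promoter sequence was available for 33 of the 39 members in RefSeq (GRCm38.p6), and the 250 bases before the annotated start site were searched on both strands. The C/EBP-ATF response element, the composite site known to be bound by ATF4 with a C/EBP partner, was written as TGATGNAA. It was found in 8 members (Aars, Asns, Atf3, Chac1, Fgf21, Gars, Herpud1 and Nupr1) and in 3.91% of the 27025 genes with a window. Of these 8 members 2 rose, 1 fell and 5 passed neither way, and of the 25 members with a window and no such match 6 rose and 1 fell. The windows of 2 members that rose, of the member with the largest fall and of the ER gene Herpud1, whose level was lower under the fold limit, are shown because the same element stood in each. The element is in capitals, read on either strand, and sequences run 5′ to 3′ along the gene's strand.
Asns (chr6:7693210-7693459, minus strand, match 23 bases before the start): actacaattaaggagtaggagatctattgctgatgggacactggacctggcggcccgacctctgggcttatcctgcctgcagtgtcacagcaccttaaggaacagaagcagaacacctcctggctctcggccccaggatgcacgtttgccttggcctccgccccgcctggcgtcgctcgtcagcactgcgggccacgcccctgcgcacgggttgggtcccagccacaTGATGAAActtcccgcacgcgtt
Atf3 (chr1:191183334-191183583, minus strand, match 110 bases before the start): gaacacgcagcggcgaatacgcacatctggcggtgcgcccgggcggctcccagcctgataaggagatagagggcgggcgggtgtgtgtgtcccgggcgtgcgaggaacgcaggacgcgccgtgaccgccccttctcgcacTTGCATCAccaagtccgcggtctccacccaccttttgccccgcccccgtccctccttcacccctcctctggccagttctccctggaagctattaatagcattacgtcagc
Chac1 (chr2:119350992-119351241, plus strand, match 193 bases before the start): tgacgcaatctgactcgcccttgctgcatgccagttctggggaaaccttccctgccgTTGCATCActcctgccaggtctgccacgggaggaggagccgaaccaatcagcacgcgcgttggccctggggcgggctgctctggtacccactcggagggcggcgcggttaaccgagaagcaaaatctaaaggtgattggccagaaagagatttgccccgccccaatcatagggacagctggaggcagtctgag
Herpud1 (chr8:94386179-94386428, plus strand, match 112 bases before the start): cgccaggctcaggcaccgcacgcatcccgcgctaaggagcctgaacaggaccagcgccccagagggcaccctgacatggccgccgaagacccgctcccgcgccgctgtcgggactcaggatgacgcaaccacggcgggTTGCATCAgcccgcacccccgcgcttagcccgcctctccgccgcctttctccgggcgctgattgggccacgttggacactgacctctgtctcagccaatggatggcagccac

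In Asns the match was TGATGAAA on the gene's strand, and in the other 3 windows it was TTGCATCA, the element on the opposite strand. The other motifs searched were the E-box CACGTG, the core of the sites that TFEB's family binds, in 5 members (Aars, Aldh18a1, Cbs, Fgf21 and Nupr1) and 6.86% of genes, the cyclic AMP response element TGACGTCA, in Ppp1r15a and 1.77% of genes, the unfolded protein response core TGACGTG, in Eprs and 1.85% of genes, and the ER stress response element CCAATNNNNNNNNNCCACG, in 0 members and 0.13% of genes. Only that form of the ER stress response element was searched, so other forms were not looked for, in the Herpud1 window or elsewhere. The Herpud1 window ended on all but the last base of the searched form. The next base lay outside the 250 bases, so whether Herpud1 holds the full form there was not seen. None of the matches of different motifs overlapped in these members. A match is a run of letters in the window and says nothing of binding in this tissue.

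Among the sensors that start the programme, the transcript of PERK was the only one to pass both limits. Eif2ak3, which encodes PERK, lay at 6.54, 6.64 and 6.31 in GFP control replicates 1 to 3 and at 7.09, 7.18 and 7.38 in TFEB overexpression replicates 1 to 3. All 3 TFEB arrays were higher than every GFP array, and the gene rose 1.65-fold (0.72 ± 0.12, adjusted p = 0.0054). Its other 2 probe sets differed by -0.38 and 0.05 and did not pass, and with the mean over its probe sets the gene no longer passed (0.13, adjusted p = 0.23). Eif2ak4, which encodes GCN2, the kinase that answers uncharged tRNA, was at 5.58, 5.21 and 5.32 in GFP control and 5.84, 5.65 and 5.68 in TFEB overexpression. Here too the groups were apart, but the difference did not pass (0.35 ± 0.11, adjusted p = 0.054). For Ern1, which encodes IRE1, and Atf6 the differences were 0.16 ± 0.090 and 0.09 ± 0.064, with adjusted p of 0.21 and 0.31. The Ern1 groups overlapped, and the Atf6 groups did not. The other 2 probe sets of Ern1 differed by -0.19 and 0.11.

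Atf4 and Atf3 lay in opposite directions at the transcript level. Atf4, the central factor, was at 11.04, 11.06 and 11.10 in GFP control and at 10.58, 10.52 and 10.59 in TFEB overexpression. Every TFEB array was lower, and replicates of each group were within 0.1 of each other, but the difference stayed under the fold limit (-0.50 ± 0.065, 1.42-fold lower, adjusted p = 0.0026). Its other 2 probe sets differed by 0.05 and -0.17 and did not pass, and the mean of all 3 was -0.21 (adjusted p = 0.062). Atf3, a stress-induced factor that ATF4 is known to activate, was at 6.08, 7.23 and 6.59 in GFP control and at 7.60, 7.35 and 7.68 in TFEB overexpression. The TFEB arrays were the higher ones, with GFP control replicate 2 only just under the lowest of them, and the gene rose 1.87-fold (0.91 ± 0.27, adjusted p = 0.045). That call was lost without GFP control replicate 1 (0.63, adjusted p = 0.081) or 3 (0.88, adjusted p = 0.12) and when any TFEB overexpression replicate was left out (for 1, 2 and 3 in turn 0.88, 1.00 and 0.84, with adjusted p of 0.11, 0.078 and 0.13). Without GFP control replicate 2 the gene stayed past both limits (1.20, adjusted p = 0.0019).

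The other factors did not pass. Ddit3, which encodes CHOP, the factor tied to cell death under lasting ER stress, was at 7.84, 7.77 and 8.15 in GFP control and at 7.85, 7.87 and 7.84 in TFEB overexpression. The groups overlapped and the difference was -0.06 ± 0.11 (adjusted p = 0.69). Differences were -0.30 ± 0.10 for Atf5 (adjusted p = 0.063), a relative of ATF4 translated under the same conditions, -0.07 for Cebpb, a partner in ATF4 complexes, -0.02 for Xbp1, the target of IRE1, and 0.07 for Nupr1, a stress-induced chromatin protein. Of these 4 only Atf5 had groups that did not overlap, with TFEB overexpression lower. A second probe set of Cebpb was lower under the fold limit (-0.41, adjusted p = 0.0063), and the 4 probe sets of Xbp1 ran from -0.03 to 0.29. Splicing of Xbp1 was not read out.

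Within feedback and growth control, Chac1 fell and Ddit4 rose. Chac1, an ATF4 and CHOP target that degrades glutathione, was at 10.69, 10.01 and 10.25 in GFP control and at 8.68, 9.11 and 7.83 in TFEB overexpression. All 3 TFEB arrays were lower, with TFEB overexpression replicate 3 the lowest, and the 3.43-fold fall was the largest of any member (-1.78 ± 0.33, adjusted p = 0.0092). Ddit4, which encodes REDD1, an inhibitor of the growth kinase complex mTORC1, was at 5.90, 6.21 and 6.59 in GFP control and at 6.78, 6.98 and 6.94 in TFEB overexpression. The groups were apart by a narrow gap and the gene rose 1.59-fold (0.67 ± 0.17, adjusted p = 0.026). The Ddit4 call was lost without GFP control replicate 1 (0.50, adjusted p = 0.053) and with TFEB overexpression replicate 1, 2 or 3 left out (0.73, 0.63 and 0.65, with adjusted p of 0.051, 0.080 and 0.086).

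Ppp1r15a, which encodes GADD34, the phosphatase subunit that ends eIF2 phosphorylation, was lower under the fold limit, at 8.31, 8.41 and 8.25 in GFP control against 8.01, 7.89 and 7.92 in TFEB overexpression (-0.38 ± 0.076, adjusted p = 0.011). The groups did not overlap. Trib3, a pseudokinase that is among the best known ATF4 and CHOP targets, was at 6.26, 6.12 and 6.06 in GFP control and 6.27, 6.04 and 6.02 in TFEB overexpression. Those values overlapped almost fully (-0.04 ± 0.098, adjusted p = 0.79). Sesn2, which restrains mTORC1 when leucine is short, and Eif4ebp1, which holds back cap-dependent translation, also had overlapping groups, with differences of -0.03 ± 0.11 and 0.13 ± 0.14. Eif4ebp1 had probe sets that disagreed, since its other 2 differed by -0.10 and -0.40, the latter at an adjusted p of 0.034.

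**Figure D2:**
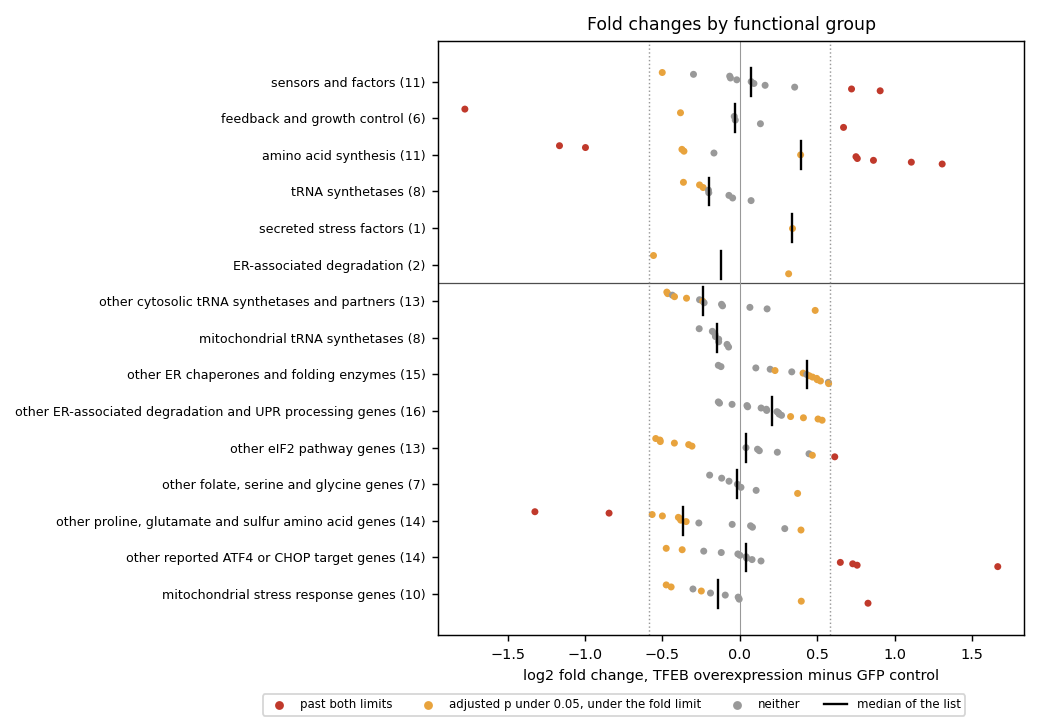
Each point is a gene, placed by its log2 difference (TFEB overexpression minus GFP control), in rows by list with the number measured in parentheses; the rows above the line are the members and those under it are the other pathway genes. Red points passed both limits, orange points had an adjusted p under 0.05 with less than 1.5-fold (dotted lines), and black ticks are list medians, which ran from 0.43 for other ER chaperones to -0.36 for other proline, glutamate and sulfur amino acid genes among lists of more than 2 genes.

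Of the 11 amino acid synthesis members measured, 7 passed both limits, 5 that rose and 2 that fell, and the list's median difference was 0.39. Over all genes 8.62% rose and 4.90% fell. The number of amino acid synthesis members that rose was 2 without GFP control replicate 1 or without TFEB overexpression replicate 2 or 3. It was 3 without GFP control replicate 3. Serine synthesis runs through Phgdh, Psat1 and Psph in that order. Psat1, the aminotransferase of the middle step, was at 5.33, 6.03 and 5.37 in GFP control and at 6.69, 6.67 and 7.29 in TFEB overexpression. Every TFEB array was higher and the gene rose 2.47-fold (1.31 ± 0.24, adjusted p = 0.0089), the largest rise of any member. Its other probe set rose as well (1.58, adjusted p = 0.0021). Phgdh, the dehydrogenase that commits glycolytic carbon to serine, was at 6.68, 7.44 and 7.26 in GFP control and at 7.63, 7.99 and 8.35 in TFEB overexpression. The groups were apart by a narrow gap and the gene rose 1.82-fold (0.86 ± 0.24, adjusted p = 0.036).

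Phgdh was the least certain of these. Of its 4 probe sets, all of a design that may also read similar sequences, 2 rose (0.86 and 0.73) and 2 did not pass (-0.08 and 0.18), and 2 further probe sets shared with the gene models Gm8096 and Gm6756 were not used. With the mean over its probe sets Phgdh lay under the fold limit (0.42, adjusted p = 0.041). The call was also lost when GFP control replicate 1 (0.64, adjusted p = 0.079) or 3 (0.93, adjusted p = 0.077), or TFEB overexpression replicate 2 (0.86, adjusted p = 0.091) or 3 (0.68, adjusted p = 0.11), was left out. Psph, the phosphatase of the last step, was at 7.78, 7.39 and 7.66 in GFP control and 7.49, 7.33 and 7.51 in TFEB overexpression. Its groups overlapped (-0.17 ± 0.12, adjusted p = 0.31), so the 3 steps of the path did not all rise.

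Serine feeds glycine and the folate cycle. Shmt2, the mitochondrial enzyme that splits serine, was higher under the fold limit, at 7.43, 7.40 and 7.44 in GFP control and 7.93, 7.71 and 7.81 in TFEB overexpression (0.39 ± 0.078, adjusted p = 0.011). Its cytosolic counterpart Shmt1 was lower under the fold limit, at 6.83, 7.05 and 6.85 against 6.62, 6.65 and 6.34 (-0.37 ± 0.11, adjusted p = 0.043). The groups did not overlap at either gene, and they lay in opposite directions. The Shmt2 probe set used was of the design that may also read similar sequences. The other 3 probe sets of Shmt2 differed by 0.02 to 0.14 and did not pass, and those of Shmt1 by -0.54 to -0.07. With the mean of its probe sets Shmt2 was at 0.15 (adjusted p = 0.15), and whichever array was left out the adjusted p of Shmt1 lay above 0.05, from 0.061 to 0.11. Mthfd2, a mitochondrial folate enzyme and known ATF4 target, was at 6.45, 7.18 and 6.32 in GFP control and at 7.45, 7.32 and 7.45 in TFEB overexpression. The TFEB arrays were close together and higher, with GFP control replicate 2 nearest to them, and the gene rose 1.69-fold (0.76 ± 0.22, adjusted p = 0.039). Its other probe set was higher under the fold limit (0.55, adjusted p = 0.039). The Mthfd2 call was lost without GFP control replicate 1 or 3 (0.66 and 0.59, with adjusted p of 0.11 and 0.11) and with TFEB overexpression replicate 1, 2 or 3 left out (0.74, 0.80 and 0.74, with adjusted p of 0.10, 0.081 and 0.11), and without GFP control replicate 2 it was 1.03 (adjusted p = 0.00039).

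Aldh18a1, which makes the precursor of proline from glutamate, was at 5.78, 6.24 and 5.63 in GFP control and at 6.93, 6.93 and 7.11 in TFEB overexpression. The groups were far apart and the gene rose 2.15-fold (1.11 ± 0.16, adjusted p = 0.0037). Its 5 probe sets all differed upwards, from 0.14 to 1.11, 2 of them past both limits, and the mean of all 5 lay under the fold limit (0.54, adjusted p = 0.0035). The 2 that passed were of the design that may also read similar sequences. The only Aldh18a1 probe set of another design lay under the fold limit (0.56, adjusted p = 0.0059). Asns, the asparagine synthetase and the standard target of the amino acid response, was at 5.40, 5.37 and 5.63 in GFP control and at 5.82, 6.29 and 6.54 in TFEB overexpression. All TFEB arrays were higher, TFEB overexpression replicate 1 the least, and the gene rose 1.68-fold (0.75 ± 0.19, adjusted p = 0.023). A second Asns probe set rose more (1.29, adjusted p = 0.0012). It was dim, with a mean of 4.00 in GFP control, and of the design that may also read similar sequences. The Asns call was lost when GFP control replicate 1 (0.72, adjusted p = 0.069) or TFEB overexpression replicate 2 or 3 (0.71 and 0.59, with adjusted p of 0.072 and 0.063) was left out.

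The 2 amino acid genes that fell act in cysteine and alanine metabolism. Cth, which makes cysteine from cystathionine, was at 5.72, 5.59 and 5.82 in GFP control and at 4.54, 4.90 and 4.19 in TFEB overexpression. The groups were well apart and the gene fell 2.24-fold (-1.17 ± 0.18, adjusted p = 0.0044). Cth was read by 1 probe set, and its mean in TFEB overexpression was low on the array, at the 24th percentile of probe sets. Cbs, the preceding enzyme of the same path, was lower under the fold limit (-0.36 ± 0.11, adjusted p = 0.047), with values of 5.90 to 6.31 in GFP control and 5.70 to 5.76 in TFEB overexpression. Its adjusted p was 0.010 without GFP control replicate 2 and 0.10 to 0.13 without any 1 of the other arrays. Gpt2, the mitochondrial alanine aminotransferase, was at 11.22, 10.57 and 11.01 in GFP control and at 10.06, 9.95 and 9.80 in TFEB overexpression. Each TFEB array was lower and the gene fell 2.00-fold (-0.997 ± 0.17, adjusted p = 0.0066), as did its other 2 probe sets (-1.05 and -1.16). Cth and Gpt2 passed both limits under each of the 15 other ways of processing that kept the fold limit.

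**Figure D3:**
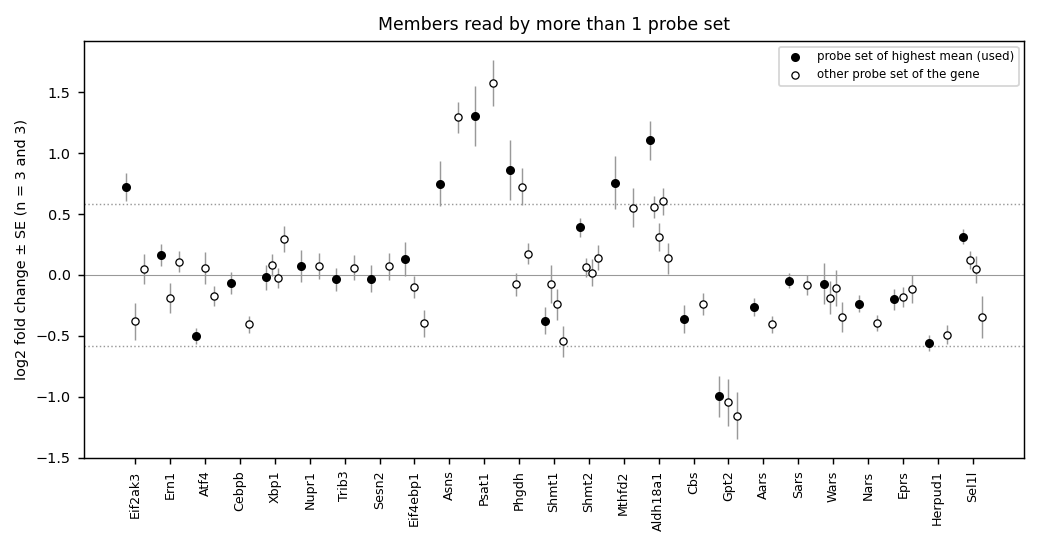
For the 25 members with more than 1 probe set, each point is the log2 difference of a probe set (TFEB overexpression minus GFP control) with its SE as a bar (n = 3 arrays per group), filled for the brightest probe set by its mean over 6 arrays, whose value stands for the gene, and open for the others. Dotted lines mark 1.5-fold. The 3 probe sets of Gpt2 lie together at -0.997 to -1.16, whereas those of Eif2ak3 (0.72, 0.05 and -0.38) and Phgdh (0.86, 0.73, 0.18 and -0.08) are spread.

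None of the 8 tRNA synthetases, the enzymes that charge tRNAs and that include well known ATF4 targets, passed both limits, and 7 of the 8 differences were negative, of which Sars and Wars turned to 0.034 and 0.011 with the arrays scaled to fast fibre contractile genes. Over all genes 6948 of 12393 differences were negative. Yars, for tyrosine, was at 8.56, 8.61 and 8.64 in GFP control and at 8.23, 8.23 and 8.25 in TFEB overexpression. The groups were apart and each was tight, and the level was lower under the fold limit (-0.36 ± 0.064, adjusted p = 0.0070). Aars, for alanine (-0.26 ± 0.073, adjusted p = 0.034), and Nars, for asparagine (-0.24 ± 0.070, adjusted p = 0.042), were lower under the fold limit too, and the second probe set of each was lower still (-0.41 and -0.40). Whichever array was left out, Yars was the 1 synthetase of these with an adjusted p under 0.05, since Aars ran from 0.055 to 0.095 and Nars from 0.069 to 0.11. Lars, for leucine, and Eprs, for glutamate and proline, differed by -0.20 ± 0.080 and -0.20 ± 0.089 and did not pass (adjusted p of 0.095 and 0.13). Sars, for serine, and Wars, for tryptophan, differed by -0.05 ± 0.064 and -0.07 ± 0.17, and Gars, for glycine, by 0.07 ± 0.076. At 6 of the 8 the TFEB arrays lay below all GFP arrays, against 28.2% of all genes, and at Wars and Gars the groups overlapped. The other 3 probe sets of Wars differed by -0.34 to -0.10.

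The synthetases that were not members gave a like picture. Of 13 other cytosolic synthetases and partners, 0 passed both limits, 5 had an adjusted p under 0.05 with a lower level and 1 with a higher level, and the median was -0.24. Over all genes 16.8% were lower and 16.8% higher by that rule. The number lower was 3 without GFP control replicate 1 or 3 or with TFEB overexpression replicate 2 or 3 left out, 4 without TFEB overexpression replicate 1 and 6 without GFP control replicate 2, and the number higher was 0 without TFEB overexpression replicate 3. The values of smallest p, chosen after they were seen, were those of Aimp1, a scaffold of the synthetase complex (-0.42, adjusted p = 0.0099), Iars, for isoleucine (-0.47, adjusted p = 0.012), and Hars, for histidine, which was higher (0.49, adjusted p = 0.013). All 8 mitochondrial synthetases measured had negative differences, from -0.26 to -0.07, and 0 of them had an adjusted p under 0.05. A negative difference was also the more common sign over all genes, at 6948 of 12393. Scaling to the fast fibre contractile genes raised every difference by 0.081, which turned the sign of Iars2 (-0.073).

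Fgf21, the hormone that stressed muscle is known to secrete, was at 4.55, 4.36 and 4.63 in GFP control and at 4.87, 4.78 and 4.88 in TFEB overexpression. The TFEB arrays were higher by a small step under the fold limit (0.33 ± 0.091, 1.26-fold, adjusted p = 0.031). The adjusted p was 0.071 without GFP control replicate 1, 0.084, 0.059 and 0.099 with TFEB overexpression replicate 1, 2 and 3 left out in turn, and 0.086 with equal medians. These levels were low on the array, where the TrpnX bacterial control probe sets ran from 2.54 to 3.09, and a difference at such levels is compressed.

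The 2 members of ER-associated degradation, the route by which misfolded proteins leave the ER, lay in opposite directions. Herpud1, an ER membrane protein that both ATF4 and ATF6 are known to induce, was at 10.48, 10.36 and 10.39 in GFP control and at 9.83, 9.89 and 9.84 in TFEB overexpression. Every TFEB array was lower, with little spread, and the fold was just inside the limit (-0.56 ± 0.069, 1.47-fold, adjusted p = 0.0023). With the arrays set to equal medians Herpud1 passed both limits (-0.63, adjusted p = 0.0024). Its second probe set differed by -0.49. Sel1l, the scaffold of the ligase complex, was at 8.15, 8.14 and 8.18 in GFP control and at 8.46, 8.46 and 8.50 in TFEB overexpression. The groups were apart and the level was higher under the fold limit (0.31 ± 0.062, adjusted p = 0.011), while its other 3 probe sets did not pass (-0.35 to 0.12) and the mean of all 4 was 0.035 (adjusted p = 0.76).

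Genes for folding proteins in the ER, which were not members, were mostly higher, by amounts under the fold limit. Of 15 such chaperones and folding enzymes 8 were higher at an adjusted p under 0.05, 0 were lower, 0 passed both limits and the median was 0.43. By adjusted p alone 16.8% of all genes were higher. Hspa5, which encodes BiP, the main ER chaperone, was at 10.41, 10.72 and 10.32 in GFP control and at 10.93, 10.83 and 11.18 in TFEB overexpression (0.50 ± 0.14, adjusted p = 0.033). Hsp90b1, the ER member of the HSP90 family, was at 9.85, 10.38 and 9.80 in GFP control and at 10.58, 10.54 and 10.63 in TFEB overexpression (0.57 ± 0.16, adjusted p = 0.031). In both genes GFP control replicate 2 was the highest of the controls and no group overlapped the other. Both were chosen after their values were seen. Without GFP control replicate 2, 5 of the 15 passed both limits, Hspa5 (0.62) and Hsp90b1 (0.76) among them, and 11 had an adjusted p under 0.05, whereas that number was 2 without GFP control replicate 1 or 3 or without TFEB overexpression replicate 3, and 3 with TFEB overexpression replicate 1 or 2 left out. Hsp90b1 was at 0.18 with the mean of its probe sets (adjusted p = 0.28), and its adjusted p was 0.075 to 0.098 without GFP control replicate 1 or 3 or TFEB overexpression replicate 1 or 2, and 0.099 without TFEB overexpression replicate 3. The adjusted p of Hspa5 was 0.096 and 0.11 without GFP control replicates 1 and 3, and 0.072 and 0.10 without TFEB overexpression replicates 1 and 3. Of 16 other genes of ER-associated degradation and unfolded protein processing, 4 were higher and 0 lower at an adjusted p under 0.05, with 0 past both limits, and without GFP control replicate 2 these were 6 higher and 1 past both limits. The chaperones' mean deviation was -0.30, 0.045 and -0.25 in GFP control replicates 1 to 3 and 0.11, 0.14 and 0.25 in TFEB overexpression replicates 1 to 3. Macrophage markers were likewise highest in replicate 2 among the GFP arrays (-1.31, 0.81 and -1.39 against 0.15, 0.88 and 0.86), whereas fibroblast and endothelial markers were lowest in that array and highest in the TFEB arrays. The part of those cells was not tested.

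Other genes around the programme differed in direction by list. Of 13 further eIF2 pathway genes only Jdp2, a repressor related to ATF3, passed both limits (0.61 ± 0.15, adjusted p = 0.021), and by adjusted p alone 2 were higher and 6 lower, a rule met by 16.8% of all genes in each direction. Jdp2 no longer passed without GFP control replicate 1 or 3 (0.53 and 0.64, with adjusted p of 0.067 and 0.059) or with TFEB overexpression replicate 2 or 3 left out (0.57 and 0.51, with adjusted p of 0.068 and 0.070), and averaged over its probe sets it was at 0.22 (adjusted p = 0.12). By adjusted p alone the number of these genes that were higher was 1 in each of those 4 cases and 3 without GFP control replicate 2, and the number lower was 4 without GFP control replicate 1 or 3 or TFEB overexpression replicate 1 or 3. Of 7 further folate, serine and glycine genes 0 passed both limits. Of 14 further proline, glutamate and sulfur amino acid genes 2 fell and 0 rose, and their median was -0.36. At an adjusted p under 0.05, 8 of them were lower and 1 was higher (0 to 1 with an array left out). The number that fell was 3 without GFP control replicate 2 and 1 with TFEB overexpression replicate 1, 2 or 3 left out, and the number lower by adjusted p was 4 without GFP control replicate 1 or any 1 TFEB array and 6 without GFP control replicate 3. Gclm, a subunit of the enzyme that starts glutathione synthesis, was at 8.43, 8.52 and 8.40 in GFP control and at 7.60, 7.58 and 7.63 in TFEB overexpression, and it fell 1.80-fold (-0.84 ± 0.068, adjusted p = 0.00073). Cdo1, which oxidises cysteine, fell as well (-1.32 ± 0.37, adjusted p = 0.036), at 7.04, 6.61 and 8.09 in GFP control and 5.55, 6.08 and 6.14 in TFEB overexpression. The fat cell markers had mean deviations of 0.42, -0.11 and 1.14 in the same GFP arrays and -0.93, -0.27 and -0.25 in the TFEB arrays, with the highest and the lowest array the same as for Cdo1, and their part in its fall was not tested. The Cdo1 call was lost without GFP control replicate 1 (-1.43, adjusted p = 0.068) or with TFEB overexpression replicate 1, 2 or 3 left out (-1.14, -1.40 and -1.43, with adjusted p of 0.11, 0.078 and 0.080).

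Among 14 other genes reported as ATF4 or CHOP targets, 4 rose and 0 fell. Sesn1, a relative of Sesn2, rose (0.65 ± 0.064, adjusted p = 0.0013, but under the fold limit with equal medians, at 0.58, or averaged over its probe sets, at 0.56), as did Sesn3 (0.76 ± 0.081, adjusted p = 0.0015). The other 2, named after their values were seen, were Cdkn1a, the cell cycle inhibitor p21, which rose 3.17-fold (1.67 ± 0.21, adjusted p = 0.0024), and Bcl2l11, which encodes the death protein BIM (0.73 ± 0.15, adjusted p = 0.012). With the mean of its probe sets Bcl2l11 no longer passed (0.18, adjusted p = 0.23). Each of the 4 is also known to answer other factors, among them p53 or FoxO proteins. In the mitochondrial stress response, Htra2, a protease, was the 1 of 10 genes past both limits (0.83 ± 0.078, adjusted p = 0.0011). Over all 110 other pathway genes measured 6 rose and 2 fell, 7.27% in either direction, next to 13.5% of all genes.

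**Figure D4:**
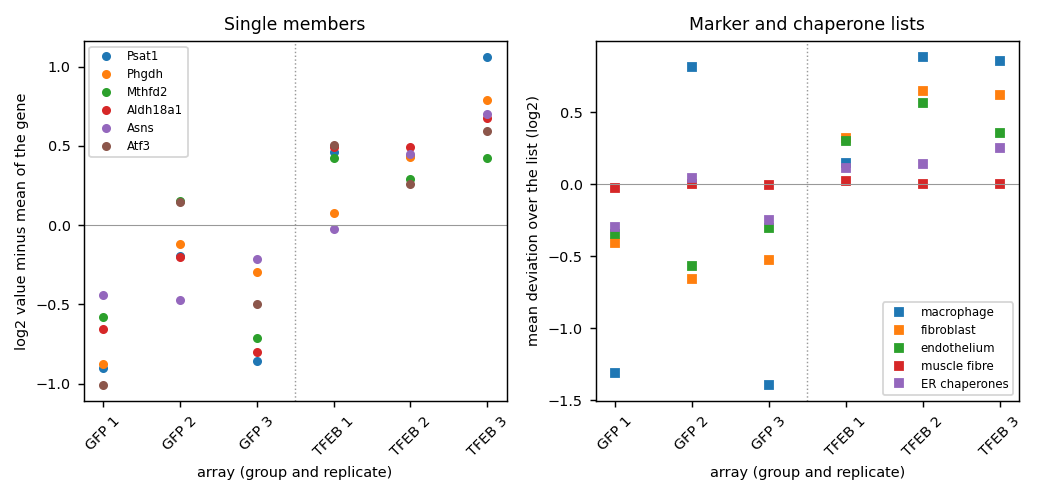
Left, log2 values of 6 members that rose, each minus the gene's mean over the 6 arrays; right, the mean of the same deviation over marker lists and ER chaperones; the horizontal axis gives the arrays by group and replicate, with a dotted line between the groups. On the left GFP control replicate 2 is the highest GFP array for Psat1, Phgdh, Mthfd2, Aldh18a1 and Atf3 but not Asns, and on the right its macrophage deviation (0.81) is close to those of TFEB overexpression replicates 2 and 3 (0.88 and 0.86).

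GFP control replicate 2 was also the control closest to the TFEB arrays at several members that rose. It was the highest of the GFP arrays for Psat1, Phgdh, Mthfd2, Aldh18a1, Atf3 and Eif2ak3, but the lowest for Asns. The mean deviation of the macrophage markers was -1.31, 0.81 and -1.39 in GFP control replicates 1 to 3 and 0.15, 0.88 and 0.86 in TFEB overexpression replicates 1 to 3, whereas those of fibroblast markers (-0.41, -0.65 and -0.53) and endothelial markers (-0.34, -0.57 and -0.31) were low in all 3 GFP arrays. Without that array the differences were 1.53 for Psat1, 1.02 for Phgdh, 1.28 for Aldh18a1, 0.79 for Eif2ak3, 0.70 for Asns and 0.66 for Ddit4, all past both limits. Chac1, Cth and Gpt2 were then at -1.93, -1.23 and -1.18.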

How the data were processed

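Total RNA of 6 mouse muscles was measured on Affymetrix arrays, and the values used are the log2 values the authors deposited, 1 per probe set and array, for which the submitters' processing notes name affy and RMA, which corrects background, quantile-normalizes the arrays and summarises the probes. Versions are not given in the sources used here. Quantile normalization partly removes a change of most transcripts in 1 direction, and RMA compresses differences of dim and bright probe sets. Arrays have no count depth, so their number limits the precision.

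Of 22690 probe sets, 64 were Affymetrix controls and the other 22626 entered the test. The platform annotation of GEO gave 1 symbol to 20380, several to 691 and none to 1555, and each of 12393 genes was given by its brightest probe set (mean over 6 arrays). Groups came from the labels and were compared with limma 3.58.1 in R 4.3.3 (lmFit and eBayes, two-sided) with Benjamini-Hochberg adjustment over all 22626. The limits, an adjusted p under 0.05 and 1.5-fold, are those named with the study's gene list, but its array methods were not at hand. The fit was tested on simulated data.

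The members and all lists were chosen with earlier results of these data known, so no list was given a test. Named are every measured member and, of the other lists, the 2 genes of smallest p past the threshold in each direction. Others are said to have been chosen after their values were seen. Alternatives were 3 other scalings, array weights, the replicate number as a block, a brightness filter at the 25th percentile, the mean or the smallest p of a gene's probe sets, a t-test (two-tailed, equal variance), no fold limit and each array left out in turn. The study names a two-tailed t-test in its general statistics, and whether its arrays were tested that way is not known here.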

Additional observations from a re-analysis of the deposited data

How the results depend on the processing

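The number of members that rose (8) was 5 with the mean of a gene's probe sets, 2 with the t-test and 3 to 8 with each array left out in turn, and the number that fell (3) was 3 to 3 over the arrays left out and 11 with no fold limit. The genes past the threshold over the whole array numbered 1675, 1343 to 2318 with an array left out and 4160 with no fold limit. The members' median (-0.04) was -0.11 with equal medians, 0.045 scaled to fast fibre genes and -0.07 to -0.016 with an array left out. Genes that rose made up 63.8% of those past the threshold, 54.2% when medians were made equal and 74.5% on the fast fibre scaling, and 72.7%, 66.7% and 72.7% of the members past it. The t-test called 4 members (Eif2ak3, Aldh18a1, Cth and Gpt2). The replicate numbers did not pair the arrays (correlations of same-numbered deviations of 0.42, 0.17 and -0.23). With the replicate number as a block 9 members passed, Atf3 (adjusted p = 0.072) and Mthfd2 (adjusted p = 0.061) being lost, and 1671 genes passed over the array. Repeated quantile normalization lost Atf3 (0.84, adjusted p = 0.051).

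Over 64 named genes and the 15 alternatives that kept the fold limit, 865 of 959 values kept direction and side of the threshold, 51 no longer passed, 17 newly passed and 26 turned sign, all 26 at genes that did not pass. Scaled to fast fibre genes these were Ddit3 (0.020), Cebpb (0.016), Xbp1 (0.061), Trib3 (0.045), Sesn2 (0.051), Sars (0.034) and Wars (0.011). With array weights they were Xbp1 (0.031) and Wars (0.048). With the mean of probe sets they were Xbp1 (0.082), Trib3 (0.011), Sesn2 (0.020) and Eif4ebp1 (-0.12), and with the probe set of smallest p Xbp1 (0.29), Trib3 (0.059), Sesn2 (0.070) and Eif4ebp1 (-0.40). With each array left out in turn the ranges spanned 0 for Ddit3 (-0.14 to 0.054), Cebpb (-0.13 to 0.016), Xbp1 (-0.070 to 0.059), Nupr1 (-0.022 to 0.20), Trib3 (-0.12 to 0.021), Sesn2 (-0.11 to 0.082) and Wars (-0.22 to 0.12). The brightness filter removed Fgf21, which then had no value. The cause of these changes was not tested. With 3 arrays a group, and 2 where an array was left out, calls near the limits depended on single arrays, and dim members such as Fgf21 had little signal over the control probe sets.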
